A study of Mus musculus with 4 samples.

Results

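The 10 genes described here are germline genes of the mouse, Dazl, Ddx4, Mael, Tdrd1, Sycp1, Sycp3, Hormad1, Stag3, Slc25a31 and Tex101. They were named by symbol, and all 10 were found among the 21670 protein-coding genes of the GENCODE M21 annotation on chromosomes 1 to 19 and X (mm10). The rule that names them uses no peak value, but they were chosen with earlier results of these data known. PHF2, a histone demethylase, and H3K9me2, histone H3 dimethylated at lysine 9, had been mapped by ChIP-seq in cultured neural stem cells. The cells came from wild-type C57BL/6J embryos at E12.5 and were kept in EGF and FGF. The data were 1 list of PHF2 peaks and 1 list of H3K9me2 regions, each from 1 sample without a replicate, so no spread between cultures could be measured. The matching inputs were not analysed here, and the depth behind the lists is unknown.

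Germline genes serve the formation of eggs and sperm and are kept off in most somatic tissues. Several of them carry CpG-rich promoters and are known in mice as targets of DNA methylation and of a Polycomb complex that holds E2F6, MGA and MAX, which recognise E2F and E-box sequences. G9a and GLP, the enzymes encoded by Ehmt2 and Ehmt1, deposit H3K9me2, and PHF2 is described as removing it. PHF2 has a PHD finger that recognises H3K4me3, the mark of active promoters. Expression was not measured in these files, so the silence of the 10 genes in the neural stem cells is background and not a result.

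The promoters are shown first, because CpG content and these 2 motifs are what most of the genes share. Each sequence is the RefSeq promoter of 300 bases on GRCm38.p6, from 250 bases before to 50 after the most 5′ RefSeq start, written 5′ to 3′ along the gene. Capitals mark the E-box CACGTG, which reads the same on both strands, and the E2F core TCCCGC, shown as GCGGGA where it lies on the opposite strand. Sycp3 and Hormad1 are shown because each holds 2 E-boxes. Slc25a31 and Stag3 stand for the genes with 1 E-box and 1 E2F core. Dazl and Tex101 are the members with neither. Sycp3 lies at chr10:88459337-88459636 (plus strand), Hormad1 at chr3:95559427-95559726 (plus), Slc25a31 at chr3:40708621-40708920 (plus), Stag3 at chr5:138280259-138280558 (plus), Dazl at chr17:50293571-50293870 (minus) and Tex101 at chr7:24672001-24672300 (minus).
Sycp3: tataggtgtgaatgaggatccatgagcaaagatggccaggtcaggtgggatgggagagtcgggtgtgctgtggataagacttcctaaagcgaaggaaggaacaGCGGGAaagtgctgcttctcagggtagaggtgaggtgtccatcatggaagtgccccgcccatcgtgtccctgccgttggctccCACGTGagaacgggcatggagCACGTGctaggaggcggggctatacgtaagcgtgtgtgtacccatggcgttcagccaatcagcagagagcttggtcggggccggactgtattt
Hormad1: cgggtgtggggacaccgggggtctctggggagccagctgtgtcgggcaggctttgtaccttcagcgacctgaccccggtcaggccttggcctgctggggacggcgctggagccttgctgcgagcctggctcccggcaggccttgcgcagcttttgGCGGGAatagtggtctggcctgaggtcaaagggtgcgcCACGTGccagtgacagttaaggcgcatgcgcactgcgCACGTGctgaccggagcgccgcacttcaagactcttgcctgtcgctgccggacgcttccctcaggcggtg
Slc25a31: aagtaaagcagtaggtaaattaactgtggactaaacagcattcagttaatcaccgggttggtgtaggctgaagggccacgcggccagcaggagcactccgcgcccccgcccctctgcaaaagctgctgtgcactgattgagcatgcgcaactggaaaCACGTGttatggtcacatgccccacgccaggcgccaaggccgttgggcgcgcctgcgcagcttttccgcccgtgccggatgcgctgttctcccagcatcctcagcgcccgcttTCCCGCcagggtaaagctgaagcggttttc
Stag3: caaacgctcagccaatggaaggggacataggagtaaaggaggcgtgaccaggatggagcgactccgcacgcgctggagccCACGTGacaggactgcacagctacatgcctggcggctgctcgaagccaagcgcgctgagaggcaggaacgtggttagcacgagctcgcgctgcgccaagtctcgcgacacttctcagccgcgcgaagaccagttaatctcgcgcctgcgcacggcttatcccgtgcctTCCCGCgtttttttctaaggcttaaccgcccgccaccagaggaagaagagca
Dazl: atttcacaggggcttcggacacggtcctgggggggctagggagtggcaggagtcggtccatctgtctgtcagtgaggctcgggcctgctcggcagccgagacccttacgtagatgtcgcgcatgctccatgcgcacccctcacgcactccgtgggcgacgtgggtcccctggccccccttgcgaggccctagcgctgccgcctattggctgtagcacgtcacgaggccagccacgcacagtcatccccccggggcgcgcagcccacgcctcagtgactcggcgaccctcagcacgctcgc
Tex101: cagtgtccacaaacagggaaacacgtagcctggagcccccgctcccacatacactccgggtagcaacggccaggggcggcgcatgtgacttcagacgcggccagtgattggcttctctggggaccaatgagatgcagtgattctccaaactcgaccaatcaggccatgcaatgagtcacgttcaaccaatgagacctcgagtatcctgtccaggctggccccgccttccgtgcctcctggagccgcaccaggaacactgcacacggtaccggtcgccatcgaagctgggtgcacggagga

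An E-box stood in the promoters of 8 of the 10 germline genes, against 9.22% of the 16426 protein-coding genes with a RefSeq promoter (1515 genes). The E2F core was found in 7 of the 10 germline genes, against 29.4% of all those genes (4827). The same 7 genes, Ddx4, Mael, Sycp1, Sycp3, Hormad1, Stag3 and Slc25a31, held both motifs, against 3.7% of all. Tdrd1 held an E-box alone. No motif match in these promoters overlapped another. The 2 motifs were picked as known sites of factors that silence germline genes. High counts at genes named as such are therefore partly built into the choice. Both motifs together stood in 5.9% of the coding genes with a CpG ratio of 0.5 or more, so promoters of like CpG were also counted. They were the 6556 other coding genes whose 300-base CpG observed/expected ratio lay in the members' own range of 0.666 to 1.06. Of these, 11.4% had an E-box in the most 5′ promoter and 44.2% an E2F core. At least 2 E-boxes, as in Sycp3 and Hormad1, stood in 1.24% of them (81 genes).

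The E-boxes lay at varied distances, counted to their first base, with the start base as 1 and the base before it as -1. They were at -11 in Tdrd1, -29 in Ddx4, -93 in Slc25a31, -94 in Sycp1, -170 in Stag3 and -223 in Mael. Sycp3 had them at -64 and -43, and Hormad1 at -57 and -20. The E2F core also had no fixed place, from -147 in Sycp3 to 21 in Slc25a31, and in Stag3 it covered the start itself. A match is a description of letters and not a measured binding site. Among 53 other germline genes with a RefSeq promoter, 12 held the E-box (22.6%) and 17 the E2F core (32.1%). Of the 12 with the E-box, Boll, Ddx25, Rec114, Syce2 and Tex12 held both motifs, which is 9.43% of the 53. Of the 9 late sperm genes in that list 0 held an E-box, a count too small to set against the 9.22% of all genes.

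**Figure D1:**
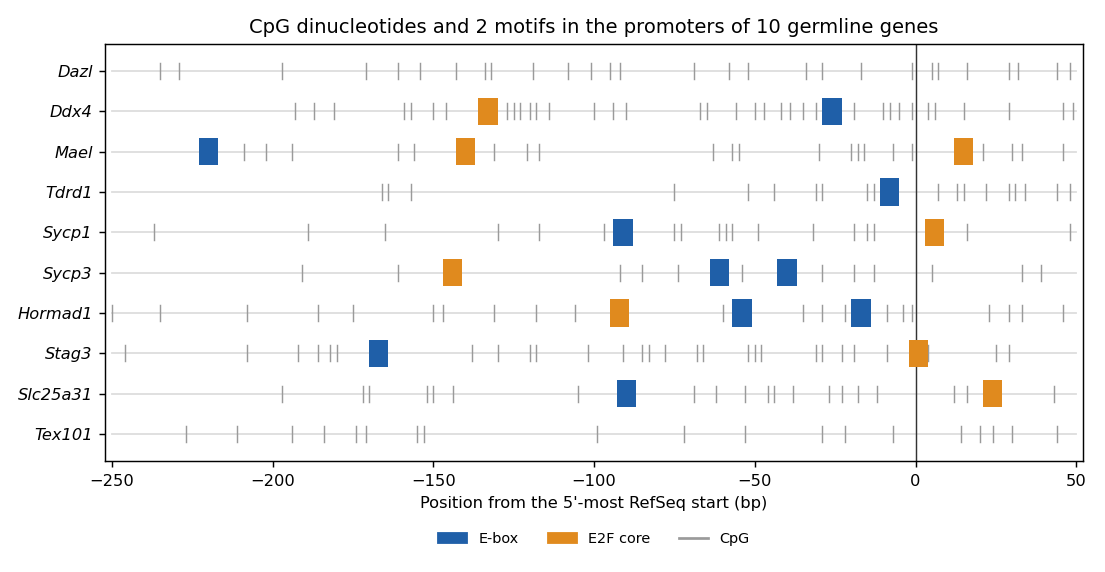
Map of the RefSeq promoters of the 10 germline genes, 1 row per gene, with distance from the most 5′ start in base pairs along the x axis. Thin grey lines are CpG dinucleotides, blue blocks are E-boxes and orange blocks are E2F cores, drawn to scale. Dazl and Tex101 carry neither motif, and Sycp3 and Hormad1 carry 2 E-boxes each.

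CpG content was measured as the observed/expected ratio of CpG dinucleotides, in windows of 1 kb on either side of every start of a coding transcript, pooled per gene. The 10 germline genes ran from 0.286 in Tex101 to 0.693 in Sycp1, with a median of 0.577, against a median of 0.428 over all protein-coding genes. The ratio was above that of all coding genes in 8 of the 10 and below it in Tdrd1 (0.418) and Tex101. By that median, these 2 genes do not meet the description of a CpG promoter in the pooled windows. For Tdrd1 this depends on a downstream start, as its upstream starts alone had ratios from 0.470 to 0.512. Dazl, an RNA-binding regulator of germ cell translation, had 0.678, higher than 84.4% of coding genes. Ddx4, the RNA helicase of the germ granule, had 0.632, and Mael, a piRNA pathway protein, had 0.606. Slc25a31, an ADP/ATP carrier of sperm mitochondria, had 0.594. Sycp3, a component of the meiotic chromosome axis, had 0.559, and Hormad1, a HORMA-domain protein of that axis, had 0.507. Stag3, the meiotic cohesin subunit, had 0.458.

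The ratio differed between the alternative starts of some genes. Stag3 had ratios from 0.659 to 0.664 at its 4 upstream starts and 0.172 at an internal start (chr5, position 138304438). Dazl had 0.780 and 0.760 at its upstream starts and 0.165 at the third. Tdrd1, a Tudor-domain protein of the piRNA pathway, had ratios from 0.470 to 0.512 at 3 starts and 0.290 at a downstream start. Tex101, a surface glycoprotein of germ cells, had 0.349 at its downstream start and 0.215 at the most 5′ start. Its RefSeq promoter, printed above, belongs to the downstream start. In the narrower 300-base promoters, the germline genes held from 15 CpG dinucleotides in Sycp3 to 38 in Ddx4, against a median of 14 over all coding genes. All 10, Tex101 with 19 among them, were thus above the median in that window.

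None of the 10 germline genes had a PHF2 peak within 1 kb of a start, against 29.1% of all protein-coding genes (6306 of 21670). Over all coding genes that share rose with the CpG ratio, to 87.5% in the bin from 0.95 to 1.00, so each germline gene was set beside the coding genes whose ratio lay within 0.05 of its own. Averaged over the 10 genes, 42% of these genes of like CpG had a PHF2 peak, which is 4.2 in 10. Without Tex101 the average was 46%. The share was 60.6% for Sycp1 (1435 of 2368 genes of like CpG), the gene of the transverse filament protein of the synaptonemal complex. It was 58.5% for Dazl (1447 of 2473) and 51.9% for Ddx4 (1431 of 2758). It was 49.9% for Mael, 47.4% for Slc25a31, 44.3% for Sycp3 and 39.3% for Hormad1. Stag3 had 34.6% and Tdrd1 27.5%. For Tex101 it was 5.74% (143 of 2493), so the absence of a peak there is the usual state at that CpG ratio.

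Of the 10 germline genes, 7 had a CpG ratio of 0.5 or more, and 0 of these 7 had a PHF2 peak. Of the 8575 coding genes at that level, 4801 had a peak (56%). The count of 0 did not change with windows of 2 or 5 kb or with all annotated transcripts. Windows of 0.5 kb, the most 5′ start alone and the higher-scoring peaks alone also gave 0. These narrower settings could not raise the count of 0. Because the members were chosen with earlier results of these data known, no test was made of it. A gene without a peak is a gene whose signal did not enter the list, in which no score was under 100.02. A lower level of PHF2 there cannot be read from these files.

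**Figure D2:**
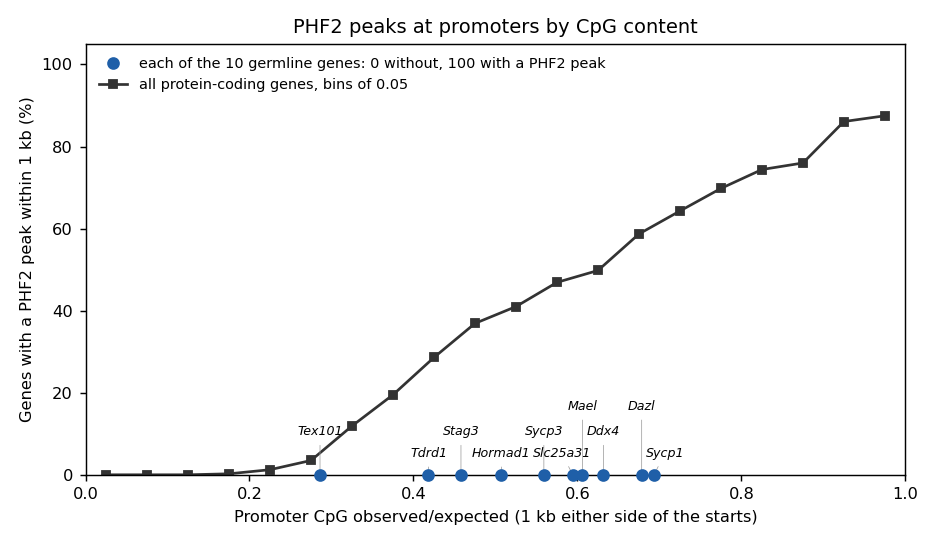
Share of genes with a PHF2 peak within 1 kb of a start (y axis, percent) against promoter CpG observed/expected (x axis). Blue circles are the 10 germline genes, placed at 0 because none has a peak, and dark squares are all protein-coding genes in bins of 0.05. The curve reaches 58.7% in the bin from 0.65 to 0.70, in which Dazl and Sycp1 lie without a peak.

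The genes closest in CpG ratio can be named. For each germline gene the 2 coding genes with the nearest ratio were taken, 20 in all. Of these, 9 had a PHF2 peak within 1 kb and 11 did not, and 0 had an H3K9me2 region there. Beside Ddx4, both Sin3b, a corepressor scaffold, and Sdc1, a cell-surface proteoglycan, had one, with scores of 136.2 and 471.7. The score is the authors' value per peak, of unstated scale, and it serves only to rank peaks within the list. Beside Slc25a31, both Zfp334 (165.2) and Dlgap4 (411.7) had one. Tdrd1 was paired with Dcaf1 (113.8), Sycp3 with Idi1 (222.8), Hormad1 with Stxbp4 (304.8), Stag3 with Ccdc88c (316.6) and Tex101 with Snx8 (120.4). The other gene of each of these 5 pairs, namely Ddx24, Tnip2, Anxa5, Rbm10 and Gm7534, had none. Both genes beside Dazl (Fzd6 and Enpp4), Mael (H60b and Smagp) and Sycp1 (Nfix and Trim23) lacked a peak.

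Within 20 kb of a start, 1 of the 10 germline genes had a PHF2 peak, against 37.7% of all coding genes (8166). The mean over genes of like CpG was 50.8%. The gene was Stag3, whose nearest peak, at chr5:138263381-138264431, lay 15.8 kb upstream and covered the start of BC037034. At 50 kb the count was 3 of 10 germline genes, against 63.5% of the genes of like CpG and 49.7% of all. At 100 kb it was 5 of 10, against 75.1% and 61.7%. Up to 10 kb no germline gene had a peak, where 45.5% of the genes of like CpG and 32.7% of all had one.

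The nearest PHF2 peak of every germline gene covered a start of another coding gene, in 10 of 10 cases. Of all 5992 PHF2 peaks 91.7% covered such a start, so this count is near the background. It lay upstream in 5 cases and downstream in 5. The distances from the germline start ran from 15.8 to 235 kb with a median of 100 kb, against a median of 51.0 kb over all coding genes. Slc25a31 had its nearest peak 36.4 kb downstream at Hspa4l, a chaperone gene (score 259.59). Sycp3 had it 43.5 kb downstream at Chpt1, a phospholipid synthesis gene (161.37). Hormad1 had it 98.3 kb downstream at Mcl1, a survival gene of the Bcl2 family (771.21). The peak at Mcl1 scored above 94.1% of all peaks, that at Hspa4l above 57.7%, that at BC037034 above 29.3% and that at Chpt1 above 28.1%.

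Another 5 germline genes lay more than 100 kb from a peak. Tdrd1 was 102 kb from a peak at Adrb1, the beta-1 adrenergic receptor gene (score 461.55). Ddx4 was 148 kb from a peak at Plpp1, a lipid phosphatase gene (259.85), and Tex101 was 164 kb from a peak at Zfp428 (289.47). Dazl was 215 kb from a peak at Plcl2 (617.35), and Mael was 235 kb from a peak at Pou2f1, the gene of the factor Oct1 (433.74). For Mael, 23.7% of all coding genes and 9.66% of those of like CpG were farther from a peak. For Stag3 these shares were 64.5% and 56.5%, so its distance is near the middle.

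The neighbouring promoters differed from gene to gene. Within 100 kb of the germline starts lay 38 other coding genes, of which 9 had a PHF2 peak within 1 kb of any of their starts (23.7%), against 29.1% of all coding genes. All 3 neighbours of Slc25a31 had one, namely Hspa4l, Intu and Plk4, with scores of 259.6, 101.4 and 186.1. The peak of Intu is at a start farther than 100 kb from Slc25a31. Stag3 had 3 of 9 neighbours with a peak, and Dazl, Ddx4, Mael, Tdrd1 and Tex101 had none. Stag3 and Gpc2, a glypican gene on the opposite strand, have starts 235 bp apart and share a CpG-rich promoter (0.619 for Gpc2), and neither had a peak. Tdrd1 and Ccdc186, 4.02 kb apart, also both lacked one, as did Ddx4 and Slc38a9, 8.29 kb apart.

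**Figure D3:**
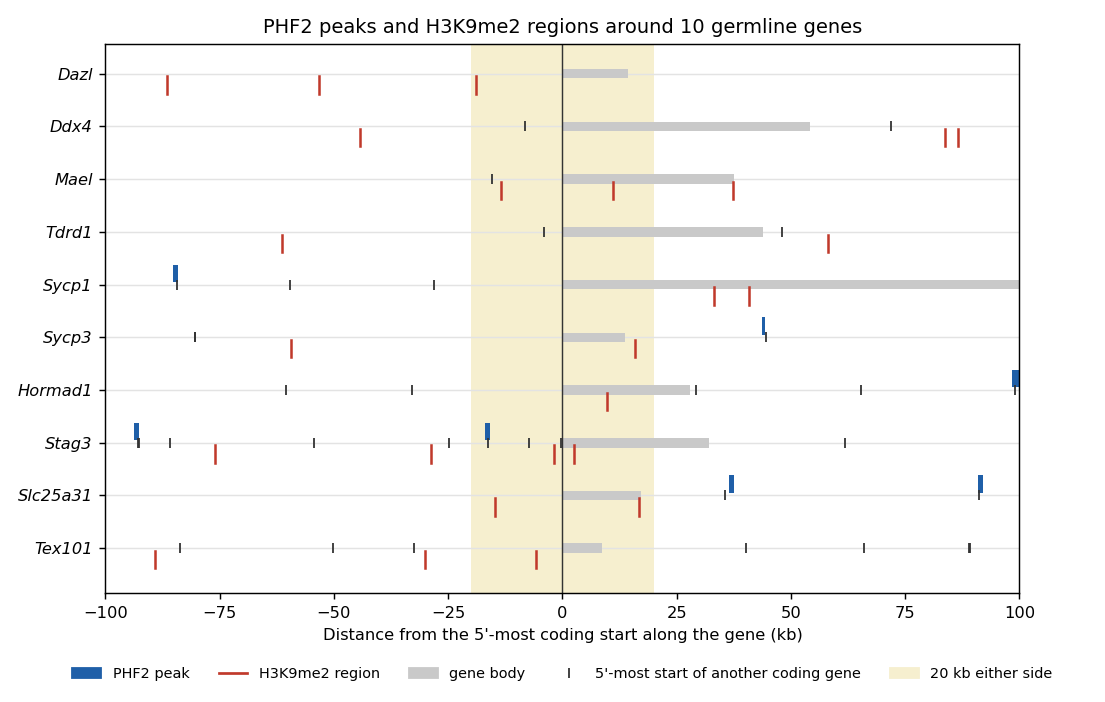
PHF2 peaks (blue blocks), H3K9me2 regions (red lines), gene bodies (grey bars) and the most 5′ starts of other coding genes (black ticks) within 100 kb of the 10 germline genes. The x axis is distance in kb from the most 5′ coding start along the direction of the gene, and the shaded band is 20 kb on either side. Peaks and regions are placed to scale, with regions drawn as lines and narrow peaks widened to be visible. The 7 PHF2 peaks lie beside Sycp1, Sycp3, Hormad1, Stag3 and Slc25a31, all outside 10 kb.

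H3K9me2 regions were also missing from the starts themselves. Within 1 kb, 0 of the 10 germline genes had a region, against 2.3% of all coding genes (498) and a mean of 1.54% among the genes of like CpG. That share amounts to 0.154 genes in 10, and the count of 0 is near this background. The nearest case was Stag3, with a region of 73 bp at chr5:138278366-138278438, 1.80 kb upstream, in an exon of Gpc2. A second region of 123 bp, at chr5:138282780-138282902, lay 2.22 kb downstream of the nearest Stag3 start, in an intron of Stag3. At 2 kb and at 5 kb Stag3 was the 1 germline gene with a region, against 4.98% and 12.2% of all coding genes.

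Farther out, the count of germline genes with a region was above the background share. Within 20 kb of a start, 7 of the 10 had at least 1 region, against 35.4% of all coding genes (7671) and 34.3% on average of the genes of like CpG. The 3 without were Ddx4, Tdrd1 and Sycp1. Genes with several starts have wider windows. With the most 5′ start alone, 7 of the 10 germline genes still had a region, against 31.8% of all coding genes. These windows held a mean of 1 region per germline gene and 0.42 per coding gene. At 10 kb the germline count was 3 of 10, against 21.6% of all, and at 50 kb it was 9 of 10, against 61.3%. No test was made of this difference. With the regions longer than 73 bp alone the count within 20 kb was 3 of 10, against 17.4% of the genes of like CpG. A share above that of all coding genes was not particular to the germline genes. Within 20 kb, 4 of 6 neuron markers had a region (66.7%). So did 5 of 10 neural stem cell markers and 5 of 10 somatic relatives of the germline genes (50% each). Of 25 genes of the silencing machinery, 5 had one (20%).

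The 10 regions within 20 kb were scattered and, like most of the list, short. Of them, 7 had the minimum length of the list, 73 bp, and the longest had 147 bp. Of the 36111 regions used, 20085 had the minimum length. Their median was also 73 bp and the longest had 367 bp. The 10 regions were split evenly, 5 upstream and 5 downstream. By annotation, 3 were intergenic, 3 intronic and 4 exonic, and 4 of the 10 lay inside the germline gene itself. No background share is given for these places. Mael had a region of 147 bp in its own intron, 11.1 kb from the start, and another 13.3 kb upstream. Hormad1 had a region in its own intron at 9.70 kb, and Slc25a31 had 1 of 146 bp in its own exon at 16.8 kb and 1 in an exon of Intu 14.7 kb upstream. Tex101 had a region 5.77 kb upstream, Sycp3 had 1 in an exon of Chpt1 at 15.8 kb downstream, and Dazl had 1 at 18.9 kb upstream.

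Repeats cover part of these regions. In 5 of the 10 no base was masked as repeat in the genome file. The mean masked share of the 10 was 24.6%, close to the 22.5% over all H3K9me2 regions, and the highest were 74.0% in the region of Tex101 and 65.8% in that of Hormad1. The part of repeats in the counts was not tested. Outside 20 kb, the nearest region lay 33.2 kb from the start of Sycp1, in its own intron, 44.3 kb from Ddx4, in an intron of Slc38a9, and 53.5 kb from Tdrd1, in an intron of Vwa2. The nearest region of the 10 germline genes ran from 1.80 to 53.5 kb away with a median of 15.2 kb, against 34.2 kb for all coding genes. It was nearer than that median in 8 of the 10, the exceptions being Ddx4 and Tdrd1.

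In the wider surroundings the germline genes had a mean of 2.5 H3K9me2 regions within 100 kb of the most 5′ start alone, against 2.14 for all coding genes. The corresponding means for PHF2 peaks were 0.7 and 1.17. The bodies of the 10 germline genes, 367066 bp in all, held 8 regions, or 2.18 per 100 kb, against 1.3 per 100 kb over the bodies of all coding genes. Sycp1 held 3 of these 8 and Mael 2. Hormad1, Stag3 and Slc25a31 held 1 each, and the bodies of Dazl, Ddx4, Tdrd1, Sycp3 and Tex101 held none. With counts of this size, 1 or 2 regions decide the density.

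**Figure D4:**
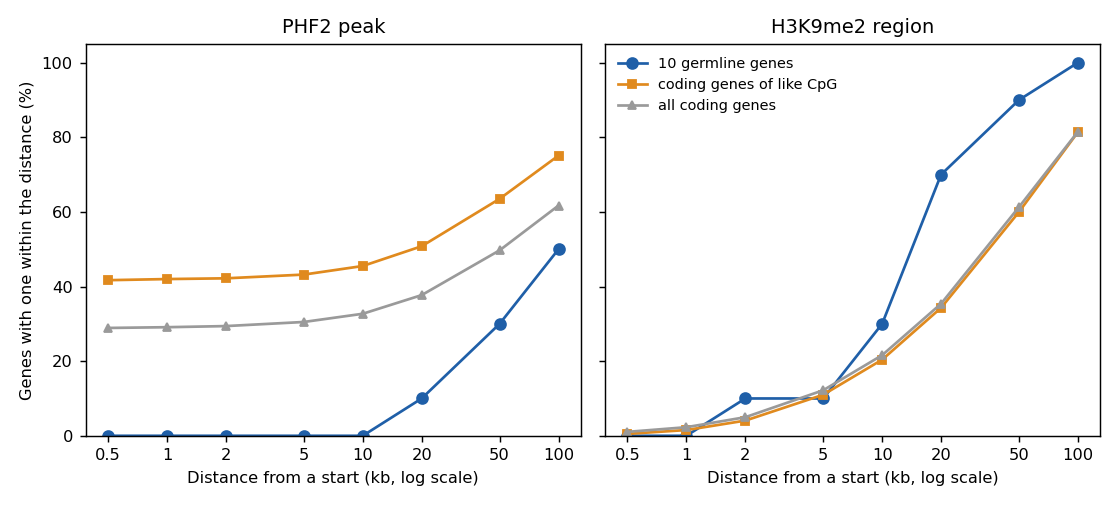
Share of genes (y axis, percent) with a PHF2 peak (left) or an H3K9me2 region (right) within a given distance of a start (x axis, kb, log scale). Blue circles are the 10 germline genes, orange squares the mean over coding genes of like CpG and grey triangles all coding genes. For PHF2 the germline genes lie below both curves from 0.5 kb to 100 kb. For H3K9me2 they lie at or near them up to 5 kb and reach 70% at 20 kb, against 34.3% and 35.4%.

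Germline genes outside the 10 were scored in the same way, by role. Of 66 other germline genes, 3 had a PHF2 peak within 1 kb (4.55%), against a mean of 25.3% among coding genes of like CpG. They were Tdrkh, a piRNA pathway gene (score 315.54), Hsf2bp, a meiotic recombination gene (267.76), and Tex14, a gene of germ cell bridges (218.82). In the piRNA pathway this was 1 of 15 genes, against 29.1% of genes of like CpG. None of 14 genes listed under the meiotic axis and synapsis had a peak, against 31.6%. That list is broader than its name and also holds Stra8, Meioc, Majin, Terb1 and Terb2. Recombination genes had 1 of 11, against 36.1%, and germ cell regulators 1 of 16, against 22.3%. Late sperm genes, such as the protamine genes Prm1 and Prm2, had 0 of 10, but their promoters are CpG-poor, with a median ratio of 0.233, and genes of like CpG had 4.01%. Among the 18 other germline genes with a ratio of 0.5 or more, 1 had a PHF2 peak.

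H3K9me2 regions within 1 kb were found at 2 of these 66 genes, 3.03%, near the 2.3% of all coding genes. They were Prdm9, which marks sites of meiotic recombination (a region of 110 bp), and Nanos2, an RNA-binding regulator of male germ cells (73 bp). Within 20 kb the count was 33 of 66 genes (50%), lower than the 7 of 10 above and higher than the 35.4% of all coding genes. It varied by role, with 10 of 15 piRNA genes, 7 of 14 genes of the axis and synapsis list and 5 of 11 recombination genes. Germ cell regulators had 3 of 16 and late sperm genes 8 of 10. The 3 genes Prm1, Prm2 and Tnp2 are clustered, so their windows overlap. The 1 region within 20 kb of each is the same region, so they are not separate cases in these counts.

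Somatic relatives of the germline genes had PHF2 peaks at a share near that of other genes of their CpG content. A peak stood at 6 of 10 of them (60%), against 63.5% of the genes of like CpG. Ddx3x, a helicase related to Ddx4, had a score of 527.32. The somatic ADP/ATP carriers Slc25a4 and Slc25a5, relatives of Slc25a31, had 408.42 and 336.49. Stag1, a somatic counterpart of Stag3, had 309.67 and also an H3K9me2 region of 73 bp, and Smc3, its cohesin partner, had 190.63. Tdrd3, a Tudor-domain relative of Tdrd1, had 548.88. No peak stood at Mad2l1, a HORMA-domain relative of Hormad1, nor at the cohesin genes Stag2, Rad21 and Smc1a. Pairs thus differed for Ddx4, Slc25a31 and Tdrd1, and for Stag3 and Stag1. Stag3 and Stag2 both lacked a peak, as did Hormad1 and Mad2l1. The pairs were not matched for CpG, and each relative had a higher ratio than its germline gene. Tdrd3 had 0.847 against 0.418 for Tdrd1, and Ddx3x had 0.734 against 0.632 for Ddx4.

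Genes of the machinery known to silence germline genes had peaks of their own. Of 25 such genes, 17 had a PHF2 peak within 1 kb (68%), against 51.8% of genes of like CpG. The highest scores were those of Cbx3, which encodes a heterochromatin protein (1434.7), Ehmt1, which encodes the H3K9 methyltransferase GLP (371.97), and Wdr5 (330.02). E2f6, the E2F factor of the Polycomb complex, had 294.36, Uhrf1, a maintenance factor of DNA methylation, 281.49, and the chromatin remodeller Hells 268.06. Atf7ip, Dnmt3a, Ehmt2, Hdac1, L3mbtl2 and Max were among the 8 without a peak. An H3K9me2 region of 73 bp lay within 1 kb of a start of Atf7ip and of Dnmt3b.

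**Figure D5:**
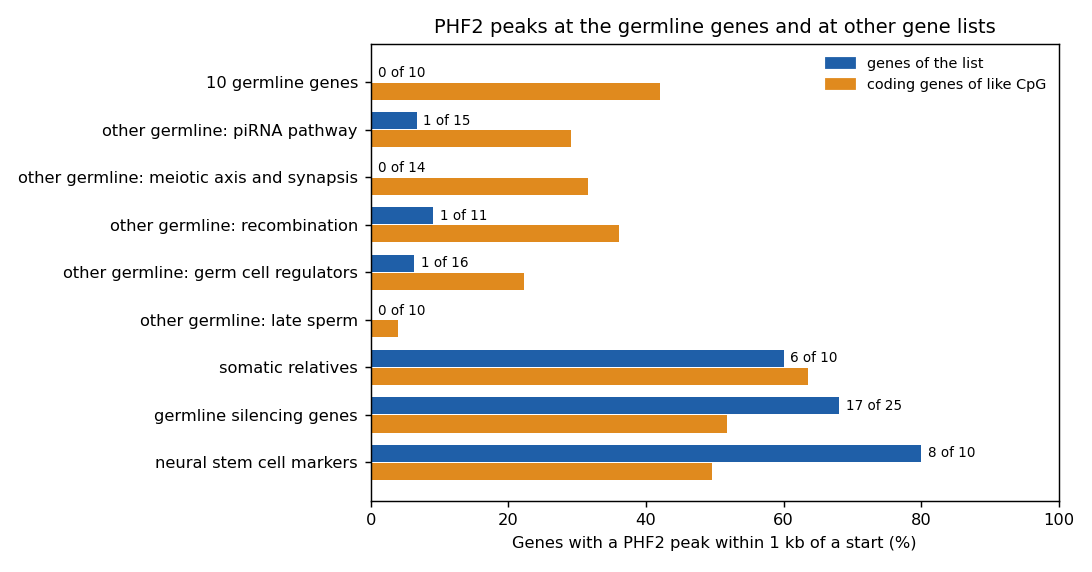
Share of genes with a PHF2 peak within 1 kb of a start (x axis, percent) in the 10 germline genes, the other germline genes by role, the somatic relatives, the silencing genes and neural stem cell markers. Blue bars are the genes of each list, with their count beside the bar, and orange bars are the mean over coding genes of like CpG. The 6 germline rows run from 0% to 9.09%, and the 3 other rows from 60% to 80%.

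The label of the cells was checked against marker genes in the PHF2 list. Of 10 neural stem cell markers, 8 had a PHF2 peak within 1 kb, against 49.6% of genes of like CpG. They included Hes1 (score 2021.85), Sox9 (1839.15), Vim (1757.88) and Nes (1693.52), and the exceptions were Hes5 and Msi1. Of 6 neuron markers, Map2 and Syt1 had a peak (33.3%), against 25.7% of genes of like CpG, so the neuron markers were not below that share. Peak positions are no measure of expression, so this checks the label only in part. The germ cell markers are the 10 genes of this account, which had 0 peaks.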

How the data were processed

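ChIP-seq of PHF2 (Cell Signaling D45A2) and of H3K9me2 (Abcam ab1220) had been done once each in neural stem cells, per the labels. PHF2 peaks were called with MACS, per the file headers. For H3K9me2 the caller, and for both lists the control and settings, are not given in the sources used here. Bowtie2 and mm10 appear in the submitters' processing notes. The deposited PHF2 list holds 5992 peaks with the authors' score (100.02 to 3226.07, scale not given). Of 36171 deposited H3K9me2 regions, 36111 on chromosomes 1 to 19 and X were used, and their score column holds 0 throughout. A peak counted when it overlapped a window by 1 bp or more (Python 3.11.15, numpy 2.4.6).

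Starts were those of coding transcripts in GENCODE M21 on GRCm38, the mm10 assembly, pooled per gene. CpG observed/expected was computed from the genome sequence. Motifs were sought in RefSeq promoters of GRCm38.p6, and all 10 germline genes matched by symbol, as did 16426 of 21646 coding symbols. All coordinates are printed 1-based. The overlap and CpG steps were tested on simulated data.

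The germline genes, lists, motifs and named genes were chosen with earlier results of these data known. The rule named all 10 genes, the gene at each nearest PHF2 peak (that of Sycp1 is not reported here), the 2 genes closest in CpG ratio, the listed germline genes with a peak or region, the somatic relatives, and the 6 highest-scoring silencing genes with up to 6 lacking a peak by name. With 1 sample per target no test was run, and counts are descriptions. Other windows, start sets, peak sets and CpG tolerances were tried.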

Additional observations from a re-analysis of the deposited data

How the results depend on the processing

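Of 54 alternatives over 8 results, 29 left the value the same or within set limits and 25 moved it. Counts were judged by a factor of 1.5, and the mean shares and the median CpG ratio by limits around the main value. The limits were 40.2 to 43.8% for PHF2 within 1 kb and 49 to 52.7% within 20 kb. They were 32.6 to 36.1% for H3K9me2 within 20 kb and 0.449 to 0.704 for the CpG ratio. For the shares the limits were at the 95% level with genes as the units. They hold no spread between cultures and serve only to sort the alternatives. Of the 54 alternatives, 11 were chosen after seeing the data. The count of germline genes with a PHF2 peak within 1 kb stayed at 0 under each of its alternatives. Only the wider windows and the starts of all transcripts could have raised that count. For H3K9me2 within 1 kb, the count of 0 became 1 with windows of 2 kb and 1 with 5 kb. For PHF2 within 20 kb, the count of 1 became 0 with 10 kb, 3 with 50 kb, 2 with 20 kb beyond both ends of the gene and 0 with the higher-scoring peaks alone. For H3K9me2 within 20 kb, the count of 7 became 3 with 10 kb and 3 with regions longer than the minimum length. It also became 9 with 50 kb, 9 with 20 kb beyond both ends of the gene and 8 with all transcripts. Those 3 changes were inside the factor of 1.5. Among genes of like CpG, the mean share with a PHF2 peak within 1 kb, 42%, was 38.4% with the most 5′ start, 20.1% with the higher-scoring peaks, 46.3% with GC content also within 2 percentage points, 37.3% over all annotated genes, 44.2% with all transcripts and 46% without Tex101. Within 20 kb, the mean of 50.8% was 48%, 25.3%, 54.6%, 46.8%, 53.5% and 54.3% in the same order. For H3K9me2 within 20 kb, the mean of 34.3% was 29.6% with the most 5′ start, 17.4% with the longer regions, 36.8% with GC content and 38% with all transcripts. The median CpG ratio of the germline genes, 0.577, was 0.752 in the 300-base promoters. Fewer peaks, wider windows or other starts enter these by construction. No paired analysis was possible because each target had 1 sample. Peak lists give no depth, so weak signal under the threshold of either list cannot be told from none.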
